A study of Mus musculus with 6 samples.

Results

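Macrophages are the most numerous immune cells of healthy adipose tissue, and lymphocytes are present in smaller numbers. A set of 32 genes that mark these cells was examined in RNA from interscapular brown adipose tissue, the heat-producing fat depot between the shoulder blades. The 32 genes were taken by symbol from the deposited count table of 54385 rows, and each matched exactly 1 row. They comprise 9 pan-leukocyte and macrophage identity genes, 3 scavenging and efferocytosis receptors, 3 complement C1q chains, 5 genes of Fc receptor and TREM2 signalling, 2 genes of lipopolysaccharide sensing, 3 chemokine or chemokine receptor genes, 4 genes of the MHC class II pathway and 3 lymphocyte genes. Rows were matched by symbol alone, but the genes themselves were chosen with earlier results of these data known.

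Polyadenylated RNA was sequenced from 2 groups of 20-week-old C57BL/6N mice on a chow diet, with 3 libraries each. One group was wild type (genotype label wt/wt, here WT). The other carried the ADCY3∆AT genotype, which the series describes as a knockout of Adcy3-AT, a truncated form of adenylyl cyclase 3 that cold induces in brown fat. How the deletion was made, whether it is limited to one cell type, the sex of the mice and the housing temperature are not stated in the labels. The sample labels place the depot between the scapulae, whereas the design text calls the same abbreviation inguinal. Nothing says that the 3 libraries of a genotype came from separate mice, so the p-values below measure the spread between these libraries, which may be technical.

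Tissue macrophages engulf dying cells and debris, sample their surroundings through scavenger, Fc and pattern-recognition receptors, and present peptides to CD4+ T cells on MHC class II molecules. Resident macrophages of fat depend on the growth factor receptor encoded by Csf1r, and blood monocytes that carry the receptor CCR2 enter tissue in response to the chemokine CCL2. In brown fat, macrophages have been linked to the clearance of material released by adipocytes, to sympathetic innervation and to heat production. B cells express immunoglobulin heavy chain mu and the CD79 signalling chains, and T cells express the CD3 complex.

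The libraries held between 13758492 and 19592156 estimated counts. The library labels were checked on Adcy3. The Adcy3 gene itself had 208 ± 40.7 CPM (read counts normalised to library size, scaled by the trimmed mean of M-values) in WT and 201 ± 36.5 CPM in ADCY3∆AT (SD, n = 3 each). A separate row that the table adds under a changed Adcy3 identifier had 118 to 215 CPM in WT and 0 to 1.27 CPM in ADCY3∆AT. Across the series, 616 of 14332 tested genes passed an edgeR quasi-likelihood test at a Benjamini-Hochberg adjusted p below 0.05, of which 377 were higher and 239 lower in ADCY3∆AT. With upper-quartile factors in place of the trimmed means, that split was 282 higher and 274 lower. Markers of skeletal muscle differed between the genotypes: 7 of the 8 tested were called lower in ADCY3∆AT, and their summed level was 22.1, 110 and 654 CPM in WT and 2.75, 1.59 and 1.27 CPM in ADCY3∆AT. Myh4, a fast muscle myosin, led that list. None of the tested brown adipocyte (8), endothelial (8), fibroblast and matrix (8), erythroid (6) or nerve and Schwann cell (6) markers was called, while 1 of 5 white adipocyte markers, Lep, was called lower. The highest of each list was Fabp4, Cdh5, Col3a1, Hbb-bs, S100b and, for white adipocytes, Npr3. Whether muscle tissue in the WT dissections bears on any value below was not tested.

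The immune genes were expressed at low levels in this tissue. Their summed level was 276, 294 and 426 CPM in WT replicates 1 to 3 and 215, 338 and 391 CPM in ADCY3∆AT replicates 1 to 3, which corresponds to between 0.0209% and 0.0432% of all counts in a library. The summed level of 8 brown adipocyte markers was 16530 to 16950 CPM in WT and 14740 to 15500 CPM in ADCY3∆AT. Of these 8 markers, 7 had log2 fold changes below 0 and 0 were called. Per kilobase of annotated exon, the highest member was Cd74, the MHC class II invariant chain, at 42.5 ± 10.6 CPM per kb in WT and 40.4 ± 14.5 in ADCY3∆AT (SD, n = 3 each). H2-Eb1 followed at 22.4 ± 5.62 in WT, Lyz2 at 18.8 ± 4.83, H2-Ab1 at 14.5 ± 4.54, C1qa at 10.3 ± 4.17, C1qb at 8.37 ± 3.17 and H2-Aa at 8.21 ± 2.12 CPM per kb. In this order, each of the 5 neighbouring pairs from H2-Eb1 to H2-Aa differed by less than the spread between WT libraries. At the low end, Ptprc, the leukocyte common antigen CD45, had 0.134 ± 0.0289 CPM per kb in WT, and Trem2, Cd3e and Ccl2 had 0.0922, 0.106 and 0.0954 CPM per kb. These places depend on the annotated exon length, which is 18313 bases for Ptprc. Without division by length, Ptprc had 2.45 CPM in WT, against 0.456, 0.433 and 0.109 CPM for Trem2, Cd3e and Ccl2. Likewise, H2-Aa at 31.2 CPM in WT stood above Lyz2 at 24.7 CPM.

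**Figure D1:**
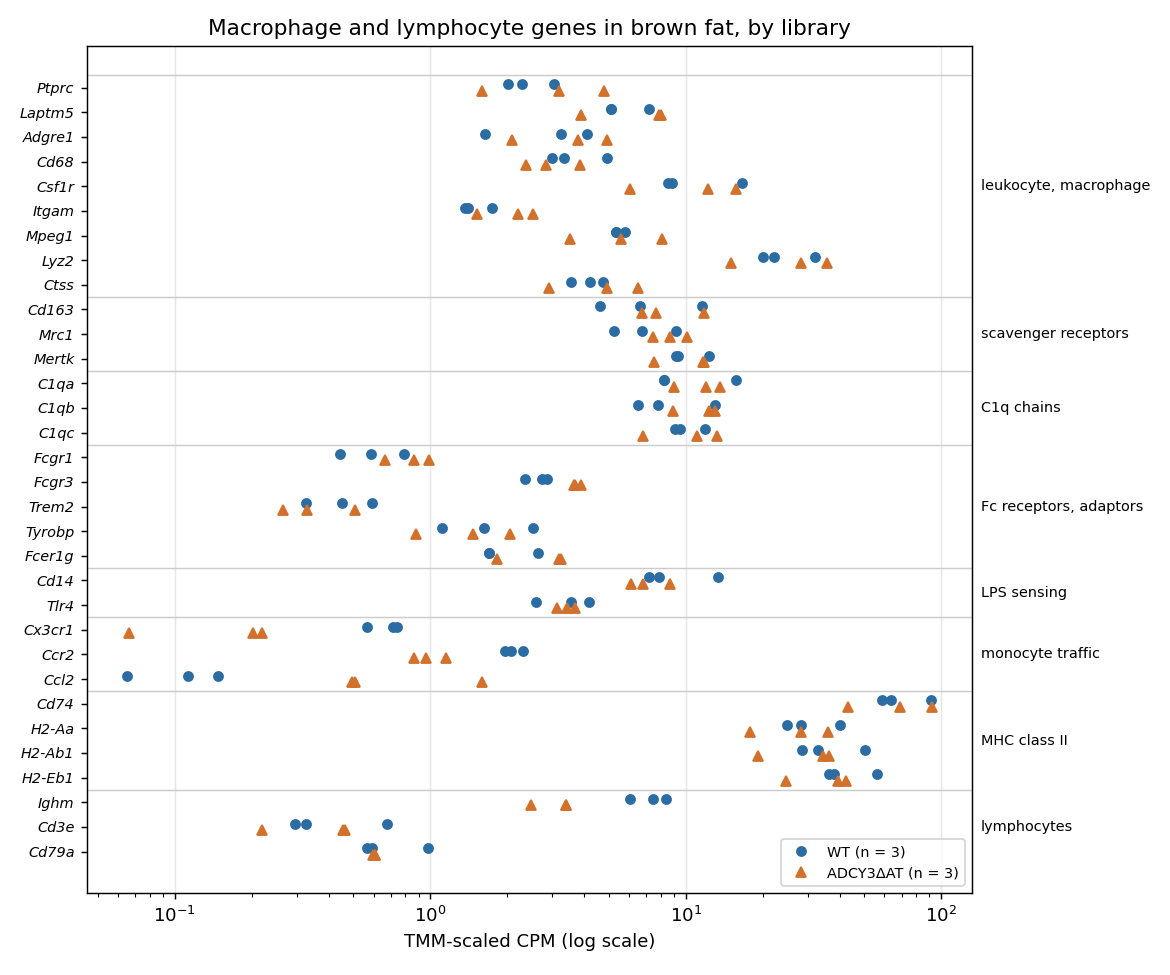
Level of each of the 32 genes in CPM, not corrected for gene length, on a log axis, with 1 point for each WT (circles) and ADCY3∆AT (triangles) library and genes grouped by role. The points of the genotypes overlap for most genes, Cd74 is the highest at 43.2 to 91.7 CPM, and Ccl2 and Cx3cr1 separate by genotype near the bottom of the range.

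The comparison of ADCY3∆AT with WT asks whether loss of the truncated cyclase went with a change in immune cell transcripts. Of the 32 genes, 28 had enough counts to be tested, and Trem2, Cx3cr1, Ccl2 and Cd3e did not. Of those 28, 0 were higher, 1 was lower (Ighm) and 27 were not called by edgeR, a share of 3.57% called against 4.30% over all tested genes (2.63% higher, 1.67% lower). An unadjusted edgeR p below 0.05 was reached by 3 of the 28 (Fcgr3, Ccr2 and Ighm), or 10.7%, against 22.6% of all tested genes. The libraries of the genotypes did not overlap for the same 3 genes, or 10.7%, against 29.0% of all tested genes. The median log2 fold change (ADCY3∆AT minus WT) over the 28 genes was 0.05, with 16 values above and 12 below 0, and the median over all tested genes was -0.01. These shares gave no excess of called or non-overlapping genes in the set. In RNA from whole tissue, fewer cells of a type and less RNA per cell cannot be told apart.

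**Figure D2:**
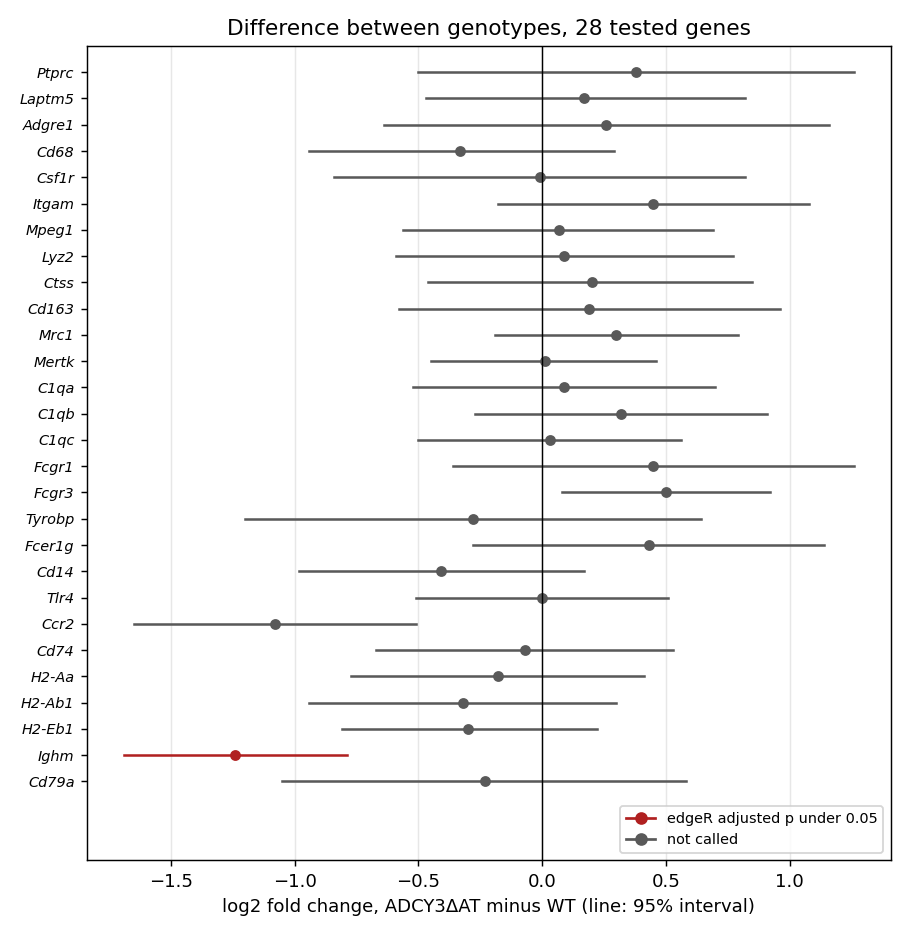
Log2 fold change (ADCY3∆AT minus WT) of the 28 tested genes with 95% intervals from the edgeR fit, grouped by role. The interval excludes 0 for Ighm and Ccr2 on the lower side and for Fcgr3 on the higher side, and only Ighm passed after adjustment over 14332 genes.

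The 9 pan-leukocyte and macrophage identity genes showed no called difference. Their fold changes were above 0 for 7 genes and below 0 for 2, with a median of 0.17. Lyz2, which encodes the lysozyme of macrophages and neutrophils and was the highest of the group, had 20.0, 22.2 and 31.96 CPM in WT and 15.03, 28.4 and 35.7 CPM in ADCY3∆AT. The lowest and the highest of these 6 values both belonged to ADCY3∆AT libraries, so the WT range lay within the ADCY3∆AT range. On the log2 scale the genotypes differed by 0.09 (95% interval -0.59 to 0.77, SE 0.30), far from the threshold (adjusted p = 0.893 in edgeR). Lyz1, a close copy of Lyz2, had 0.239 CPM in WT and 0.519 CPM in ADCY3∆AT, and how the counting divided reads between the copies is not known. Itgam, the integrin CD11b of myeloid cells, had the smallest p of the group, with 1.37, 1.404 and 1.75 CPM in WT and 2.20, 2.52 and 1.52 CPM in ADCY3∆AT. The groups overlapped through ADCY3∆AT replicate 3, and the log2 fold change of 0.45 (SE 0.28) did not pass the edgeR test (adjusted p = 0.379).

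Csf1r, the receptor that macrophages need for survival, had 8.49, 8.87 and 16.6 CPM in WT and 6.05, 12.2 and 15.7 CPM in ADCY3∆AT. The group means were 11.3 ± 4.59 and 11.3 ± 4.90 CPM (SD, n = 3 each), and the 95% interval of the ratio of ADCY3∆AT to WT reached from 0.559 to 1.77. That interval holds changes of over 1.5 times in either direction, so the equal means do not show equal expression. Adgre1, which encodes the macrophage surface protein F4/80, ranged from 1.63 to 4.11 CPM in WT and from 2.09 to 4.91 CPM in ADCY3∆AT (edgeR adjusted p = 0.746). Ptprc ranged from 2.02 to 3.04 CPM in WT and from 1.596 to 4.81 CPM in ADCY3∆AT (adjusted p = 0.600). The lysosomal genes of the group overlapped between genotypes in the same way: Cd68 (a lysosomal membrane glycoprotein) had a log2 fold change of -0.33, Laptm5 (a lysosomal membrane protein of leukocytes) of 0.17, Ctss (the protease cathepsin S) of 0.20 and Mpeg1 (the pore-forming perforin-2) of 0.07. Their edgeR adjusted p-values lay between 0.516 and 0.915.

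Receptors that mark resident macrophages gave 3 positive fold changes, none of them called. The sign of Mertk changed with upper-quartile factors (-0.03) and limma-voom (-0.01), and without some single libraries those of Mertk and Cd163 changed, both to -0.09 at the lowest. Mertk, a receptor tyrosine kinase for dying cells, was the highest, with 12.3, 9.31 and 9.13 CPM in WT and 7.54, 11.8 and 11.6 CPM in ADCY3∆AT. WT replicate 1 was the highest library of all, and ADCY3∆AT replicate 1 the lowest. The means of 10.3 ± 1.80 and 10.3 ± 2.42 CPM (SD, n = 3 each) gave a 95% interval for the ratio of 0.734 to 1.38. Mrc1, the mannose receptor CD206, had the smallest p of the 3, with 5.22, 6.73 and 9.19 CPM in WT and 7.43, 10.1 and 8.71 CPM in ADCY3∆AT. Its log2 fold change of 0.30 (SE 0.21) did not pass the edgeR test (adjusted p = 0.447). Cd163, the haemoglobin-haptoglobin receptor, ranged from 4.64 to 11.6 CPM in WT and from 6.77 to 11.8 CPM in ADCY3∆AT (adjusted p = 0.784).

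The 3 C1q chains assemble into the recognition molecule of the classical complement pathway, and in tissue they are made largely by macrophages. C1qb and C1qc lie beside each other on chromosome 4, and their promoters are shown because transcription factors of the PU.1 type, which bind the ETS core AGGAAG, govern many macrophage genes. The sequences are RefSeq promoters of the build GRCm38.p6, from 250 bases before the transcription start to 50 after it, at chr4:136886151-136886450 for C1qb and chr4:136892865-136893164 for C1qc, both on the minus strand. Capitals mark AGGAAG or its reverse complement CTTCCT.
C1qb promoter: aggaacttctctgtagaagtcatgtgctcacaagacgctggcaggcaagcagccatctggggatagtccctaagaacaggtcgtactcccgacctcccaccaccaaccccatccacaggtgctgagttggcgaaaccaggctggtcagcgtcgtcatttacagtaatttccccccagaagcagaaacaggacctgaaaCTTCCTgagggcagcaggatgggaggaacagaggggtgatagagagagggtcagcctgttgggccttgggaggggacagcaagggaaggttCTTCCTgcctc
C1qc promoter: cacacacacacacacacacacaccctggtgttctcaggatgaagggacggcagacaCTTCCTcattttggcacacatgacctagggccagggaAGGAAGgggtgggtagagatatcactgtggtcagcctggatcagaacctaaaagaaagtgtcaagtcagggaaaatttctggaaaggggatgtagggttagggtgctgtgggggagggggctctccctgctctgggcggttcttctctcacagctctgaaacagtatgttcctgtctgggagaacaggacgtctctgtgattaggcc
Both promoters held the core in 2 places, at -52 and 39 relative to the start in C1qb and at -194 and -157 in C1qc. The core is common: 14 of the 22 members with an entry in the RefSeq promoter table held it, as did 35.4% of all 32851 promoters. A match is a description of the letters and not a sign of binding.

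None of the C1q chains was called. C1qa, the highest of them, had 8.23, 8.20 and 15.7 CPM in WT and 8.97, 12.0 and 13.6 CPM in ADCY3∆AT. WT replicate 3 was the highest library and the other WT libraries the lowest, so the ADCY3∆AT values fell inside the WT range. C1qb, with the smallest p, had 6.53, 7.76 and 13.02 CPM in WT and 8.92, 13.02 and 12.4 CPM in ADCY3∆AT. The estimate was 0.32 on the log2 scale (95% interval -0.27 to 0.91, SE 0.26), with an adjusted p of 0.512 in edgeR. C1qc ranged from 9.08 to 12.0 CPM in WT and from 6.83 to 13.3 CPM in ADCY3∆AT (adjusted p = 0.959). The sign of the difference was not stable for 2 of the chains. C1qc was below 0 with upper-quartile factors (-0.01), with limma-voom (-0.02) and without any one of 4 libraries (WT replicates 1 and 2, ADCY3∆AT replicates 2 and 3), down to -0.20. C1qa was below 0 without WT replicate 1 (-0.07), WT replicate 2 (-0.06) or ADCY3∆AT replicate 3 (-0.05).

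Fc receptors bind antibody-coated particles, and they and TREM2, a lipid-sensing receptor, signal through the adaptors encoded by Fcer1g and Tyrobp. Fcgr3, the low-affinity IgG receptor CD16, was the highest of the group, with 2.35, 2.73 and 2.87 CPM in WT and 3.91, 3.65 and 3.69 CPM in ADCY3∆AT. Every ADCY3∆AT library lay above every WT library, with means of 3.75 ± 0.137 against 2.65 ± 0.271 CPM (SD, n = 3 each). The ratio of ADCY3∆AT to WT was 1.41 (95% interval 1.06 to 1.89), and after adjustment over all genes it did not pass (edgeR adjusted p = 0.158). An exact two-sided permutation test gave p = 0.1, the smallest value that 3 libraries against 3 allow. Fcgr1, the high-affinity receptor CD64, rested on 6 to 18 counts a library, and stood at 0.45 on the log2 scale (adjusted p = 0.493). Fcgr1 had enough counts to be tested only through ADCY3∆AT, where it is higher, so its values are no independent support. The adaptors stood at 0.43 (Fcer1g, adjusted p = 0.452) and -0.28 (Tyrobp, adjusted p = 0.723) on the same scale. Trem2 had 5, 8 and 8 counts in WT and 6, 4 and 10 in ADCY3∆AT, too few to be tested.

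Cd14 and Tlr4 encode the co-receptor and the signalling receptor for bacterial lipopolysaccharide. Cd14 had 7.84, 7.17 and 13.4 CPM in WT and 6.11, 8.70 and 6.83 CPM in ADCY3∆AT. WT replicate 3 stood above the other 5 libraries, which overlapped between the genotypes. The estimate on the log2 scale was -0.41 (95% interval -0.98 to 0.17, SE 0.25), with an adjusted p of 0.379 in edgeR. Without WT replicate 3 it was -0.06. Tlr4 ranged from 2.59 to 4.18 CPM in WT and from 3.12 to 3.69 CPM in ADCY3∆AT, with a ratio interval of 0.701 to 1.42 (adjusted p = 0.996).

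The 3 genes of monocyte traffic all rested on few counts, and only Ccr2 had enough to be tested. The libraries of the genotypes did not overlap for any of the 3, which was also the case for 29.0% of all tested genes. Ccr2, the receptor that draws monocytes out of blood and bone marrow (chr9:124101950-124113557, plus strand, GRCm38), had 1.96, 2.07 and 2.31 CPM in WT and 1.16, 0.864 and 0.962 CPM in ADCY3∆AT. The groups did not overlap, with means of 2.11 ± 0.180 and 0.994 ± 0.149 CPM (SD, n = 3 each). On the log2 scale the estimate was -1.08 (95% interval -1.65 to -0.51, SE 0.25), or 2.11-fold lower in ADCY3∆AT, and it missed the threshold (edgeR adjusted p = 0.0507). It passed with upper-quartile factors (adjusted p = 0.0487) and among genes above 1 CPM in at least 3 libraries (adjusted p = 0.0445). Ccr2 met that 1 CPM filter only through WT, where it is high, so the second p is no independent support. Without any one library, the adjusted p lay between 0.0796 and 0.147. The counts behind these values were 13 to 41 a library.

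Cx3cr1, the receptor for fractalkine on patrolling monocytes and some resident macrophages, lies on the same chromosome (chr9:119901616-120069879, minus strand). It had 11, 10 and 10 counts in WT and 4, 1 and 4 in ADCY3∆AT. Every ADCY3∆AT library was below every WT library, with 31 against 9 counts in all, a depth-scaled ratio of WT to ADCY3∆AT of 3.92 (95% interval 1.82 to 9.35, which covers counting error only). The gene was too low for the test. When the count minimum of the filter was lowered from 10 to 5, a choice made after the data were seen, its log2 estimate was -1.94 (adjusted p = 0.07 in edgeR). It passed that lower minimum only through WT, where it is high, so the p is no independent support.

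Ccl2, the chemokine ligand of CCR2 (chr11:82035571-82037453, plus strand), went the other way. It had 1, 2 and 2 counts in WT and 9, 24 and 10 in ADCY3∆AT. Every ADCY3∆AT library was above every WT library, with 5 against 43 counts, a ratio of ADCY3∆AT to WT of 7.56 (95% counting interval 3 to 24.5). With the count minimum of 5 its log2 fold change was 2.89 (edgeR adjusted p = 0.0652), and with no filter it was 2.91 (adjusted p = 0.000657). It passed the count minimum of 5 only through the genotype in which it is high, so that p is no independent support. The fit with no filter called 1951 genes over the series, against 616 in the main fit, and its p was not taken as support. Other monocyte chemokine genes near Ccl2 were looked at after these values were seen. Its neighbour Ccl7 had 1, 0 and 2 counts in WT and 13, 6 and 13 in ADCY3∆AT, a ratio of 9.38 (2.93 to 47.9). Ccl12 and Ccl8, further along the chromosome, overlapped between the genotypes. Ccl12 had 0.261, 0.0739 and 0.225 CPM in WT and 1.54, 0.266 and 0.0506 CPM in ADCY3∆AT. Ccl8 had 0, 0.222 and 0.169 CPM in WT and 0.110, 0.399 and 0.658 CPM in ADCY3∆AT.

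**Figure D3:**
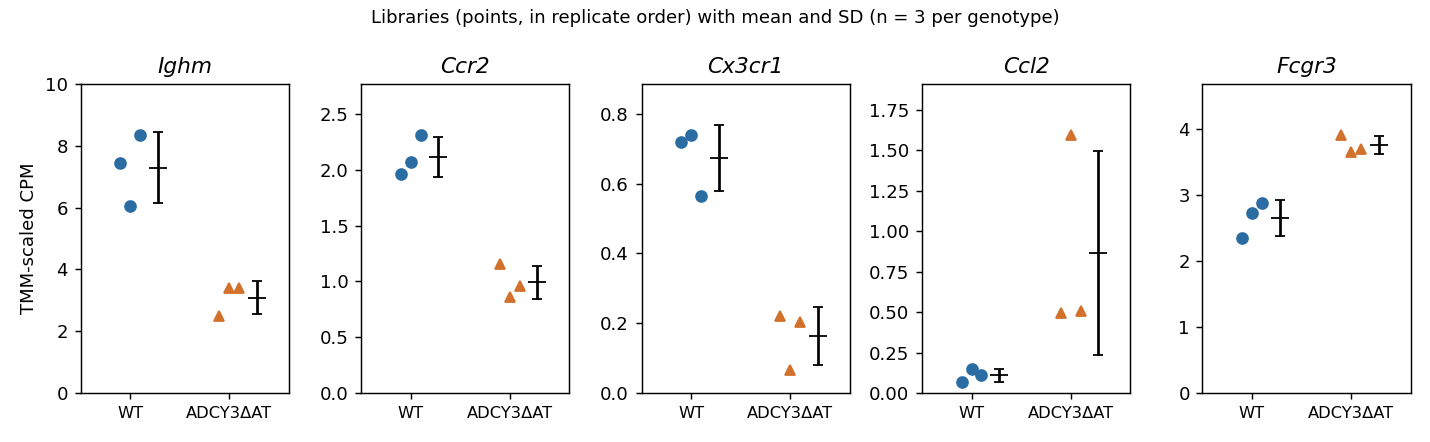
CPM of Ighm, Ccr2, Cx3cr1, Ccl2 and Fcgr3 in each library, with 1 point a library and the mean and SD (n = 3) beside each genotype. The points of the genotypes do not overlap in any of the 5 panels, and Ccl2 varies most within ADCY3∆AT, from 0.495 to 1.59 CPM.

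MHC class II molecules present peptides to CD4+ T cells, and the genes here encode their chains H2-Aa, H2-Ab1 and H2-Eb1 and the invariant chain Cd74, which guides them through the cell. Their transcription is governed by a set of promoter boxes, of which the X box binds the RFX complex and the Y box binds NF-Y, with the co-activator encoded by Ciita. The promoters of H2-Aa (chr17:34287774-34288073, minus strand) and H2-Eb1 (chr17:34305617-34305916, plus strand) are shown from the same RefSeq table to place these boxes. Capitals mark CTNGCAAC, a form of the X box, and CTGATTGG, a form of the Y box, in that order.
H2-Aa promoter: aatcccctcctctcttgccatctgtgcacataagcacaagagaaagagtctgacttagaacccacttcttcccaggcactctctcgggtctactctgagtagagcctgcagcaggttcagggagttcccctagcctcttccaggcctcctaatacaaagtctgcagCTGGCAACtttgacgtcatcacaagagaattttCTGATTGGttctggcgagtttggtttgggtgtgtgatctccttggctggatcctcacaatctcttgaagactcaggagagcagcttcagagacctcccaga
H2-Eb1 promoter: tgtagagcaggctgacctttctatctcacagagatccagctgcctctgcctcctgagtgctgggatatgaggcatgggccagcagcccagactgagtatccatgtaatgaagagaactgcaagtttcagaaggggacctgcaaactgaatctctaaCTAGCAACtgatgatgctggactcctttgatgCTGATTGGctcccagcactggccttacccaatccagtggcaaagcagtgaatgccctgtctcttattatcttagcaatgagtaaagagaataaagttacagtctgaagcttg
The X box letters began at -84 and the Y box letters at -51 in H2-Aa, and at -94 and -62 in H2-Eb1. On either strand, CTNGCAAC occurred in 3.42% and CTGATTGG in 4.1% of all 32851 promoters, and both occurred in 59 (0.18%). Among the 22 members in the table, CTNGCAAC occurred in 3 (Cd163, H2-Aa and H2-Eb1) and CTGATTGG in 2. These letters were chosen after the 2 sequences had been read.

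The 4 class II genes had fold changes below 0 and none was called. Cd74 had 58.6, 63.6 and 91.7 CPM in WT and 43.2, 68.8 and 91.7 CPM in ADCY3∆AT. Replicate 3 was the highest library in both genotypes, and the ranges overlapped. On the log2 scale the estimate was -0.07 (95% interval -0.67 to 0.53, SE 0.26; adjusted p = 0.904 in edgeR). H2-Eb1, with the smallest p of the group, had 36.4, 38.0 and 56.1 CPM in WT and 24.7, 39.5 and 42.3 CPM in ADCY3∆AT. Those values overlapped, and the log2 fold change of -0.30 (SE 0.22, 95% interval -0.81 to 0.22) had an adjusted p of 0.477 in edgeR. The log2 estimates were -0.18 for H2-Aa (adjusted p = 0.718) and -0.32 for H2-Ab1 (adjusted p = 0.534). Without ADCY3∆AT replicate 1, which was the lowest library for all 4 genes, the log2 fold change of H2-Aa was 0.06 and that of Cd74 was 0.18, and without WT replicate 3 they were 0.05 and 0.15.

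Of the 15 further genes of class II machinery and costimulation, 10 were tested, 0 were called and 9 had fold changes below 0. Rfx5, a subunit of the RFX complex, had the smallest p, at -0.74 on the log2 scale (adjusted p = 0.0619 in edgeR). The other RFX subunits had log2 fold changes of -0.35 (Rfxank, adjusted p = 0.149) and -0.04 (Rfxap, adjusted p = 0.856). Ciita had 1.16 ± 0.273 CPM in WT and 1.94 ± 1.38 CPM in ADCY3∆AT (SD, n = 3 each; edgeR adjusted p = 0.51).

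Ighm was the 1 called gene of the set. It encodes the heavy chain constant region of immunoglobulin M, made by B cells and plasma cells (ENSMUSG00000076617, chr12:113418558-113422730, minus strand, GRCm38). It had 7.44, 6.06 and 8.34 CPM in WT and 2.48, 3.39 and 3.39 CPM in ADCY3∆AT, from 114, 82 and 148 counts and 45, 51 and 67 counts. Every ADCY3∆AT library was below every WT library, and the lowest WT value was well above the highest ADCY3∆AT value. Ighm fell by 1.24 on the log2 scale (SE 0.20, 95% interval -1.69 to -0.79; edgeR adjusted p = 0.0154), or 2.37-fold, from 7.28 ± 1.15 to 3.09 ± 0.527 CPM (SD, n = 3 each). The exact two-sided permutation p was 0.1, the smallest possible. The call held with DESeq2 and limma-voom and was lost without WT replicate 1 (log2 fold change -1.23, adjusted p = 0.0725) or WT replicate 3 (-1.13, adjusted p = 0.0537).

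The other lymphocyte genes gave little to set beside Ighm. Cd79a, a signalling chain of the B cell receptor, had 0.979, 0.591 and 0.564 CPM in WT and 0.605, 0.598 and 0.607 CPM in ADCY3∆AT, from 8 to 15 counts a library. The values overlapped, and the log2 fold change of -0.23 (SE 0.36, 95% interval -1.05 to 0.58) had an edgeR adjusted p of 0.747. Cd3e, a chain of the T cell receptor complex, had 5, 4 and 12 counts in WT and 4, 7 and 9 in ADCY3∆AT and was not tested. Of 15 further B cell and plasma cell genes, 4 were tested and 0 were called, and 10 stayed below 1 CPM in every library. The antibody genes Igkc, Jchain and Igha had log2 fold changes of 0.57 (adjusted p = 0.441), 0.37 (adjusted p = 0.662) and 2.08 (adjusted p = 0.0948), opposite in sign to Ighm. The Igha libraries overlapped between the genotypes, and without ADCY3∆AT replicate 3 its log2 fold change was 1.38. Igha had enough counts to be tested only through ADCY3∆AT, where it is high, so its p is no independent support. Ighd, the heavy chain of immunoglobulin D, had 5, 5 and 5 counts in WT and 0, 1 and 4 in ADCY3∆AT, a ratio of WT to ADCY3∆AT of 3.41 (95% counting interval 1.18 to 12). Ighd was chosen after its values were seen and was not tested.

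The spread among libraries of one genotype was wider for the immune genes than over all tested genes. The median ratio of the highest to the lowest library of a genotype was 1.6 in WT and 1.73 in ADCY3∆AT over the 28 tested genes, against 1.22 in each genotype over all tested genes, which were not matched on level. ADCY3∆AT replicate 1 was the lowest of the 6 libraries for 16 of the 28 genes (57.1%, against 18.5% of all tested genes). WT replicate 3 was the highest for 11 (39.3%, against 21.9%) and ADCY3∆AT replicate 3 for 9 (32.1%, against 16%). The class II genes moved together in this respect: relative to each gene's mean over the 6 libraries, the 4 genes stood at 0.572 to 0.626 in ADCY3∆AT replicate 1 and at 1.32 to 1.5 in WT replicate 3. The C1q chains had another order: they stood at 0.636 to 0.883 in WT replicate 1, 0.739 to 0.921 in WT replicate 2 and 0.664 to 0.869 in ADCY3∆AT replicate 1. In the other libraries they stood at 1.16 to 1.42 (WT replicate 3), 1.07 to 1.27 (ADCY3∆AT replicate 2) and 1.2 to 1.3 (ADCY3∆AT replicate 3). Ighm, too, was lowest in ADCY3∆AT replicate 1 and highest in WT replicate 3, but ADCY3∆AT replicates 2 and 3, at 3.39 CPM each, stood below every WT library.

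**Figure D4:**
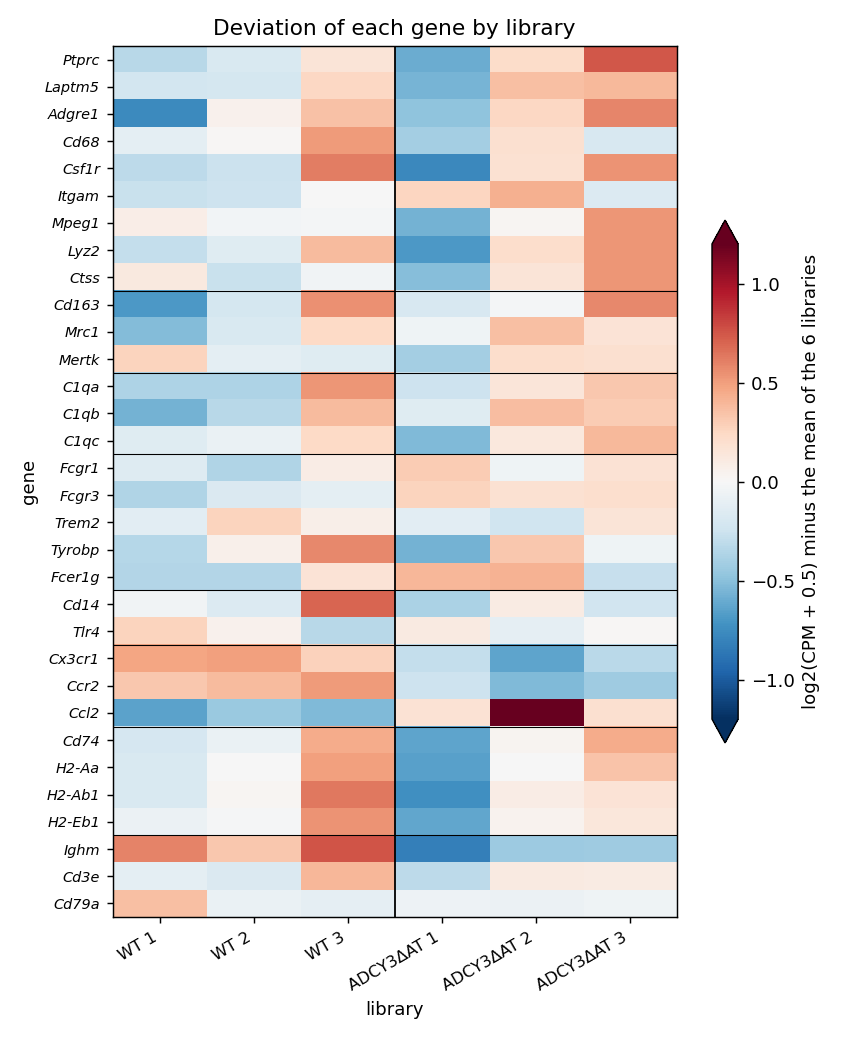
Deviation of log2(CPM + 0.5) from the mean of the 6 libraries, by library (columns) and gene (rows, grouped by role), with red above and blue below the mean on a colour scale that saturates at its ends. The class II rows and most macrophage identity rows are blue in ADCY3∆AT replicate 1 and red in WT replicate 3, while Ighm, Ccr2, Cx3cr1 and Ccl2 change colour between the genotypes.

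Summed levels of other cell types were compared with the same libraries. Fibroblast and matrix markers summed to 350, 426 and 558 CPM in WT and to 314, 423 and 528 CPM in ADCY3∆AT, so ADCY3∆AT replicate 1 was lowest and WT replicate 3 highest, as for the class II genes. Class II genes summed to 148, 163 and 238 CPM in WT and to 105, 171 and 206 CPM in ADCY3∆AT. Erythroid markers summed to 1337, 805 and 1722 CPM in WT and to 729, 1380 and 1135 CPM in ADCY3∆AT, again with these 2 libraries at the ends. Endothelial markers varied less, from 534 to 613 CPM, and WT replicate 3 was their lowest library. Skeletal muscle markers were also highest in WT replicate 3. The part of stromal, blood or muscle tissue in the levels of the immune genes was not tested.

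**Figure D5:**
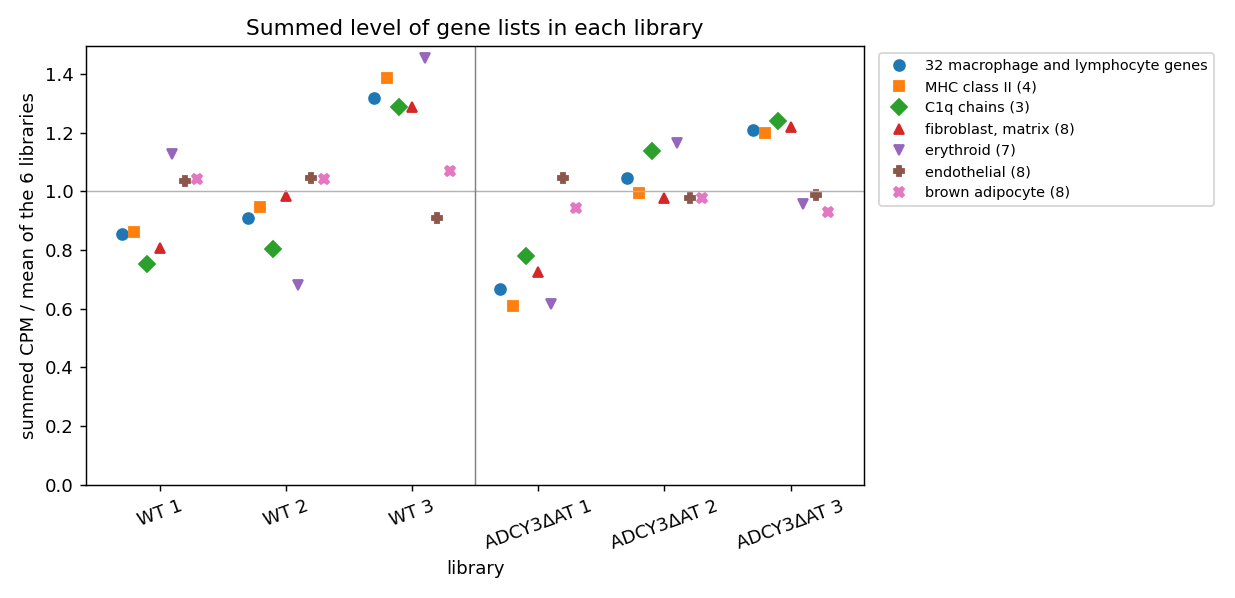
Summed CPM of the 32 genes, of the class II genes and C1q chains among them, and of markers of 4 other cell types in each library, divided by the mean of the 6 libraries. The immune, fibroblast and erythroid sums are above 1 in WT replicate 3 and below 1 in ADCY3∆AT replicate 1. The endothelial and brown adipocyte sums stay near 1, and the brown adipocyte sum is lower in every ADCY3∆AT library than in every WT library.

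A wider list of 238 other immune genes gave 134 tested genes, of which 0 were higher, 1 was lower and 133 were not called by edgeR, or 0.746% called against the 4.30% over all genes. An unadjusted edgeR p below 0.05 was reached by 30 (22.4%, against 22.6%), of which 21 were higher and 9 lower in ADCY3∆AT, and the median log2 fold change was 0.00. The called gene was Kit, the stem cell factor receptor of mast cells and progenitors, with 41.8, 26.0 and 36.0 CPM in WT and 8.26, 18.8 and 12.0 CPM in ADCY3∆AT. The groups did not overlap, and Kit fell by 1.42 on the log2 scale (SE 0.28; edgeR adjusted p = 0.0327). The call was lost without WT replicate 1 (adjusted p = 0.121), WT replicate 3 (0.0872) or ADCY3∆AT replicate 3 (0.0916). Of the 11 mast cell and eosinophil markers that include Kit, 9 were below 1 CPM in every library, and 2 could be tested. DESeq2 called 7 of the wider list: Kit, Ctsz, Ccl6, Nfkbia, C3, Rfx5 and Igha. In edgeR, Ctsz passed without ADCY3∆AT replicate 1 (adjusted p = 0.0108), and Ccl6 and C3 passed without WT replicate 3 (0.0275 and 0.0393).

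In the macrophage lists, 0 of 21 tested resident macrophage genes and 0 of 13 tested genes of lipid-associated macrophages were called. The gene with the smallest p was Stab1, a scavenger receptor, in the first (log2 fold change 0.33, edgeR adjusted p = 0.128) and Ctsz, a lysosomal protease, in the second (0.49, adjusted p = 0.0619). Among monocyte genes, 0 of 9 were called, and the chemokine Ccl6 came nearest (1.14, adjusted p = 0.0723). Inflammatory mediators gave 0 of 7, with the interleukin-4 receptor Il4ra nearest (1.17, adjusted p = 0.109). ADCY3∆AT replicate 1 was the highest library for Il4ra, at 42.2 CPM against 17.8 and 14.7 CPM in the other ADCY3∆AT libraries, and without it the log2 fold change was 0.56. The Toll-like receptor pathway gave 0 of 16, with 11 fold changes above and 5 below 0, from -0.52 to 0.96. An unadjusted p below 0.05 was reached by 6 of the 16 (37.5%, against 22.6% of all tested genes), each higher in ADCY3∆AT. Nfkbia, the inhibitor that NF-kB induces against itself, had the smallest p there (0.60, adjusted p = 0.087). Fc receptor and ITAM signalling gave 0 of 15 (Inpp5d, a lipid phosphatase, 0.76, adjusted p = 0.0758) and complement outside C1q 0 of 14 (C3, 0.44, adjusted p = 0.0826).

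Apart from Kit among the mast cell and eosinophil markers, lists of antigen presentation and of other leukocytes were likewise without calls. MHC class I presentation gave 0 of 13 (the immunoproteasome subunit Psmb10, -0.28, edgeR adjusted p = 0.113), and dendritic cell markers 0 of 4 (the integrin Itgae, -0.92, adjusted p = 0.103). For T cells, 1 of 17 markers could be tested (Cd247, the zeta chain of the T cell receptor, -1.54, adjusted p = 0.112) and 15 stayed below 1 CPM. Next, 2 of 11 markers of NK cells and innate lymphoid cells could be tested and 0 were called (Il1rl1, the receptor for interleukin-33, -0.29, adjusted p = 0.793), while for neutrophils 0 of 3 were called (Csf3r, the receptor of granulocyte colony-stimulating factor, 1.35, adjusted p = 0.095). Csf3r had enough counts to be tested only through ADCY3∆AT, and Cd247 only through WT. Each is high in that genotype, so their p-values are no independent support. Most T cell and NK cell markers were too low to enter the test.

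Annotated exons of some members overlap other genes, and whether the counting step was strand-specific is nowhere stated. Csf1r shares 873 bases with Hmgxb3 on the opposite strand, which had 17.9 CPM in WT and 20.1 CPM in ADCY3∆AT. Itgam shares 3450 bases with Gm49368 on the same strand, which was at 0 in every library. Cx3cr1, Cd3e and Cd74 share 78, 135 and 12 bases with other annotated genes. Reads from shared bases cannot be told apart without strand, or at all where the strand is the same.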

How the data were processed

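The table holds estimated counts per gene that the authors deposited. The submitters' processing notes name GRCm38, StringTie, Salmon and edgeR, without versions or roles. Symbols came from GENCODE M21 (54131 of 54385 rows). The counts were rounded, filtered with filterByExpr (minimum count 10, minimum total 15; 14332 genes kept), scaled by TMM and tested in R 4.3.3 by quasi-likelihood F tests (edgeR 4.0.16), with Benjamini-Hochberg adjustment over all tested genes and a threshold of 0.05. Fold changes are ADCY3∆AT minus WT, and intervals are 95% intervals. CPM per kb divides by the union of annotated exons. The exact permutation test used log2(CPM + 0.5) over 10 divisions of the libraries. A total of 3 counts corresponds to 0.152 to 0.222 CPM, which limits the lowest genes, and these limits and the count intervals cover counting error only. The steps were also run on simulated counts, with the same variability for every gene and larger changes than any tested member showed. That run does not measure how the test performs on these more variable genes. Replicates differed by more than sampling noise (chi-square per gene 6.34 to 27.2), so each library counted once. Alternatives were DESeq2 1.42.0, limma-voom (limma 3.58.1), other size factors, filters and thresholds, a replicate block, and leaving out each library. The members and the gene lists were chosen with earlier results of these data known. All members are accounted for by role, with values per library for called members and for the highest and the smallest-p member of each role. Other immune lists are represented by called genes (up to 3) or the smallest p, and lists of other cells by their highest gene. Values of untested genes were added after they were seen. The same holds for Rfxank, Rfxap, Ciita, Igkc, Jchain, Ighd, Ccl7, Ccl8, Ccl12 and the neutrophil and antibody genes of the closing section.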

Additional observations from a re-analysis of the deposited data

How the results depend on the processing

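Of 387 fold changes of members recomputed under other settings, 340 kept their direction and side of the threshold, 2 lost a call, 2 gained one and 43 changed sign. Those sign changes came from 15 members, none of them called. Genes called over all tested genes numbered 993 with DESeq2, 1951 with no filter on low counts, 324 with the replicate block (193 higher, 131 lower) and 1375 at an adjusted p below 0.10, against 616, and 162 to 461 without any one library. Called members numbered 2 with upper-quartile factors, with a filter at 1 CPM and at an adjusted p below 0.10 (Ccr2 and Ighm), 2 with no filter (Ccl2 and Ighm), and 0 to 1 without any one library. Ccr2 met the filter at 1 CPM only through WT, where it is high. Other immune genes called numbered 7 with DESeq2, 31 with no filter, 2 with a count minimum of 5 (Ccl7 and Kit; chosen after seeing the data, and Ccl7 passed this minimum only through ADCY3∆AT, where it is high), 10 at an adjusted p below 0.10 and 0 to 2 without any one library. The causes were not tested. Same-numbered libraries did not deviate together (correlations -0.01, 0.01 and -0.05), so the numbers were not taken as pairs. With the replicate block, Ighm kept its call (adjusted p = 0.0415 in edgeR), Kit lost it (0.0843), and Mertk, C1qc and Tlr4 came to 0.00, 0.00 and 0.01.

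Outside the block, signs changed with upper-quartile factors for Mertk (-0.03) and C1qc (-0.01), with limma-voom for Mpeg1 (-0.01), Mertk (-0.01), C1qc (-0.02) and Tlr4 (0.04), with no filter for Csf1r (0.02) and Tlr4 (0.02), and with a count minimum of 5 for Tlr4 (0.00). Without any one library, log2 fold changes spanned 0 for Ptprc (-0.05 to 0.71), Adgre1 (-0.04 to 0.57), Csf1r (-0.33 to 0.39), Mpeg1 (-0.28 to 0.33), Lyz2 (-0.20 to 0.38), Ctss (-0.10 to 0.46), Cd163 (-0.09 to 0.64), Mertk (-0.09 to 0.20), C1qa (-0.07 to 0.48), C1qc (-0.20 to 0.27), Tyrobp (-0.58 to 0.10), Tlr4 (-0.18 to 0.17), Cd74 (-0.35 to 0.18), H2-Aa (-0.44 to 0.06), Cd79a (-0.33 to 0.07) and Il1rl1 (-0.54 to 0.06). Low counts limit Trem2 and Cd3e, whose log2 fold changes were -0.27 and -0.22 with the count minimum of 5, and Cx3cr1, at -1.93 (edgeR adjusted p = 0.057) with no filter.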

Other observations

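Neutrophil and antibody transcripts near the limit of detection differed between the genotypes in counts that were too few to test. S100a8 and S100a9 encode the calprotectin subunits of neutrophils and monocytes. S100a9 had 2, 2 and 0 counts in WT and 10, 18 and 7 in ADCY3∆AT, a depth-scaled ratio of ADCY3∆AT to WT of 7.69 (95% counting interval 2.75 to 29.8). S100a8 had 0, 0 and 1 counts in WT and 5, 7 and 3 in ADCY3∆AT, a ratio of 13.2 (2.03 to 555). Ighg2b, an immunoglobulin G heavy chain, had 3, 0 and 2 counts in WT and 13, 17 and 8 in ADCY3∆AT, a ratio of 6.68 (2.63 to 21.8), opposite in direction to Ighm and Ighd. These genes were picked after their values were seen, and the intervals leave out the spread between libraries.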
